A study of Mus musculus with 84 samples.

Results

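The 10 genes described here encode transcription factors of the AP-1 and EGR families, and all of them were present among the 55401 gene IDs of the count files. They were taken by symbol: Fos, Fosb and Fosl2 of the FOS family, Jun, Junb and Jund of the JUN family, and Egr1, Egr2, Egr3 and Egr4. RNA had been sequenced from nuclei sorted for NeuN, a protein of neuronal nuclei, from frontal cortex of 129S6/SvEvTac mice aged 12 weeks. One group received vehicle, and the other groups received DOI (2,5-dimethoxy-4-iodoamphetamine), a hallucinogenic agonist of serotonin 2A receptors, and were sampled 24 h, 48 h or 7 days later. Each group held 4 mice with 2 libraries each, and the mouse was the replicate. The nuclei were sorted in bulk, so fewer cells of a type and less RNA per cell cannot be told apart.

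AP-1 is a pair of leucine-zipper proteins, a JUN protein bound to a FOS protein or to another JUN protein, that binds a short palindrome in promoters and enhancers. The EGR proteins carry zinc fingers that bind a GC-rich site, and the NAB proteins repress them. Most of these genes are immediate early genes: in neurons, calcium entry and MAP kinases act on the factors SRF, ELK and CREB already bound at their promoters, and transcription starts within minutes of firing and usually falls again within hours. Their RNA is therefore widely read as a mark of recent neuronal activity, while Fosl2 and Jund are known for slower or more constant expression.

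Counts per mouse, the sum of both libraries, lay between 9151680 and 11517452 in vehicle mice, between 6441396 and 8090559 at 24 h, between 5834248 and 7344355 at 48 h, and between 6972577 and 12354785 at 7 days. Several measures moved with the groups. An 18S ribosomal pseudogene feature took 0.00694% to 0.0101% of counts in vehicle mice, 0.328% to 1.57% at 24 h and 0.523% to 1.66% at 48 h. The 7 days mice 1 and 3 had 0.00835% and 0.00607%, and mice 2 and 4 had 0.633% and 0.474%. The 6 excitatory neuron markers summed to 460.4 to 515.7 CPM in vehicle mice, 938.9 to 2380 CPM at 24 h and 1432 to 2166 CPM at 48 h, and to 467.3, 1375, 427.9 and 1234 CPM in the 7 days mice in the same order. The 7 inhibitory neuron markers summed to 1386 to 2814 CPM over all groups, Sst and Vip having the highest medians; among them Gad1 was lower (-0.84 at 24 h and -0.60 at 48 h on the log2 scale), Gad2 was lower at 24 h (-0.63) and Slc32a1 was higher (1.10 and 1.46). The 6 astrocyte markers summed to 621.6 to 689.6 CPM in vehicle mice, 703.9 to 1099 CPM at 24 h, without overlap, and 440.2 to 1049 CPM in the other mice, and Gfap was at 0 in 7 mice. Slc1a2 made up most of this sum, with a median of 575.2 CPM against 67.84 CPM for Slc1a3. At 24 h, 0 of the 5 tested were called. Slc1a2 (0.49) and Aqp4 (1.01) had positive values there, and Slc1a3 (-0.27), Aldh1l1 (-0.38) and Gja1 (-0.55) negative ones. The 6 oligodendrocyte markers summed to 164.4 to 363.9 CPM in vehicle mice, with 160 to 236.1 CPM at 24 h and 183.4 to 242.2 CPM at 48 h; Mbp was lower at 24 h (-0.83) and Cnp at 48 h (-1.02). The 6 microglia markers summed to 83.47 to 121.9 CPM in vehicle mice, with 49.59 to 107.1 CPM at 24 h and 54.1 to 88.15 CPM at 48 h, and 0 of the 5 tested were called. The 5 endothelial markers summed to at most 9.942 CPM, with Cldn5 at 0 in 10 mice. NeuN's own gene Rbfox3 ranged from 46.27 to 115.1 CPM and was higher at 24 h (log2 fold change 0.81, SE 0.20, adjusted p = 0.0103, edgeR) and at 48 h (0.82, SE 0.20, adjusted p = 0.00775) than in vehicle. Of the other neuron markers, Snap25 was lower at 24 h (-0.58, adjusted p = 0.0395) and 48 h (-0.62, adjusted p = 0.0257) and Map2 was higher at 48 h (0.55, adjusted p = 0.0400). The 4 neuron markers together summed to 5181 to 5648 CPM in vehicle mice, 3843 to 5542 CPM at 24 h, 3580 to 5443 CPM at 48 h and 4041 to 5487 CPM at 7 days. Mitochondrial genes took 0.0171% to 0.0701% of counts in vehicle mice and 0.108% to 0.268% at 48 h, without overlap. The 24 h mice had between 0.0621% and 0.101%, and the 7 days mice between 0.0210% and 0.130%. The 8 striatal projection neuron markers summed to 227.4 to 285.9 CPM in vehicle mice, 198.4 to 235.9 CPM at 24 h and 227.3 to 466.2 CPM at 48 h, and to 391.2, 1138, 273.1 and 978.9 CPM in 7 days mice 1 to 4. Drd1 (-0.90) and Ppp1r1b (-1.04) were called lower at 24 h and Rgs9 (1.77) higher at 48 h, and Adora2a was at 0 in 9 mice. The 4 oligodendrocyte precursor markers summed to 13.5 to 34.68 CPM in vehicle mice, 15.15 to 20.09 CPM at 24 h and 13.89 to 21.67 CPM at 48 h. Cspg4 was called higher at both times (1.97 and 2.25) and Olig1 lower at 48 h (-1.26). The part of these measures in the members' values was not tested, apart from the 18S pseudogene share. On the first principal component of all genes, the 7 days mice 1 and 3 lay at -87.5 and -82.94, within the vehicle range of -94.57 to -68.96, and mice 2 and 4 at 52.1 and 64.79, within the range of 22.01 to 66.18 of the 24 h and 48 h mice.

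Against vehicle, 1 of the 8 members that could be tested rose at 24 h, Fosl2, and 1 was lower at 48 h, Jun. None of the 8 passed the threshold at 7 days. Fos, Egr1 and Egr2 differed more between mice of the vehicle group than between the group means. The test was edgeR's quasi-likelihood test over 17941 genes with Benjamini-Hochberg adjustment, and a gene was called at an adjusted p below 0.05. Fosb and Jund failed the filter on low counts and have no test.

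The members' count was read beside the share of all genes called. At 24 h, 24.2% of all genes tested were called, 13.8% higher and 10.4% lower, against 1 of 8 members (12.5%). At 48 h, 30.1% of all genes were called, 16.8% higher and 13.3% lower, again against 1 of 8 members (12.5%). The number of all genes called moved with single mice: at 24 h it was 4346, and 2576, 2595 and 2550 without vehicle mouse 1, vehicle mouse 2 or 24 h mouse 4, and at 48 h it was 5395, and 3514 and 3586 without vehicle mouse 1 or 2. Fosl2 was called in each of these 24 h fits, and Jun in neither of these 48 h fits. The median log2 fold change was 0.07 over the members and 0.03 over all genes at 24 h, and -0.23 and 0.02 at 48 h. At 7 days the share of all genes called was 0, and 2 members, Jun and Egr3, had an unadjusted p under 0.05, as did 16.8% of all genes. DESeq2 called 0 members and 796 genes in all at 7 days. Without 7 days mouse 1, edgeR called 1 member (Jun) and 1342 genes, and without mouse 3 it called 0 members and 1160 genes.

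**Figure D1:**
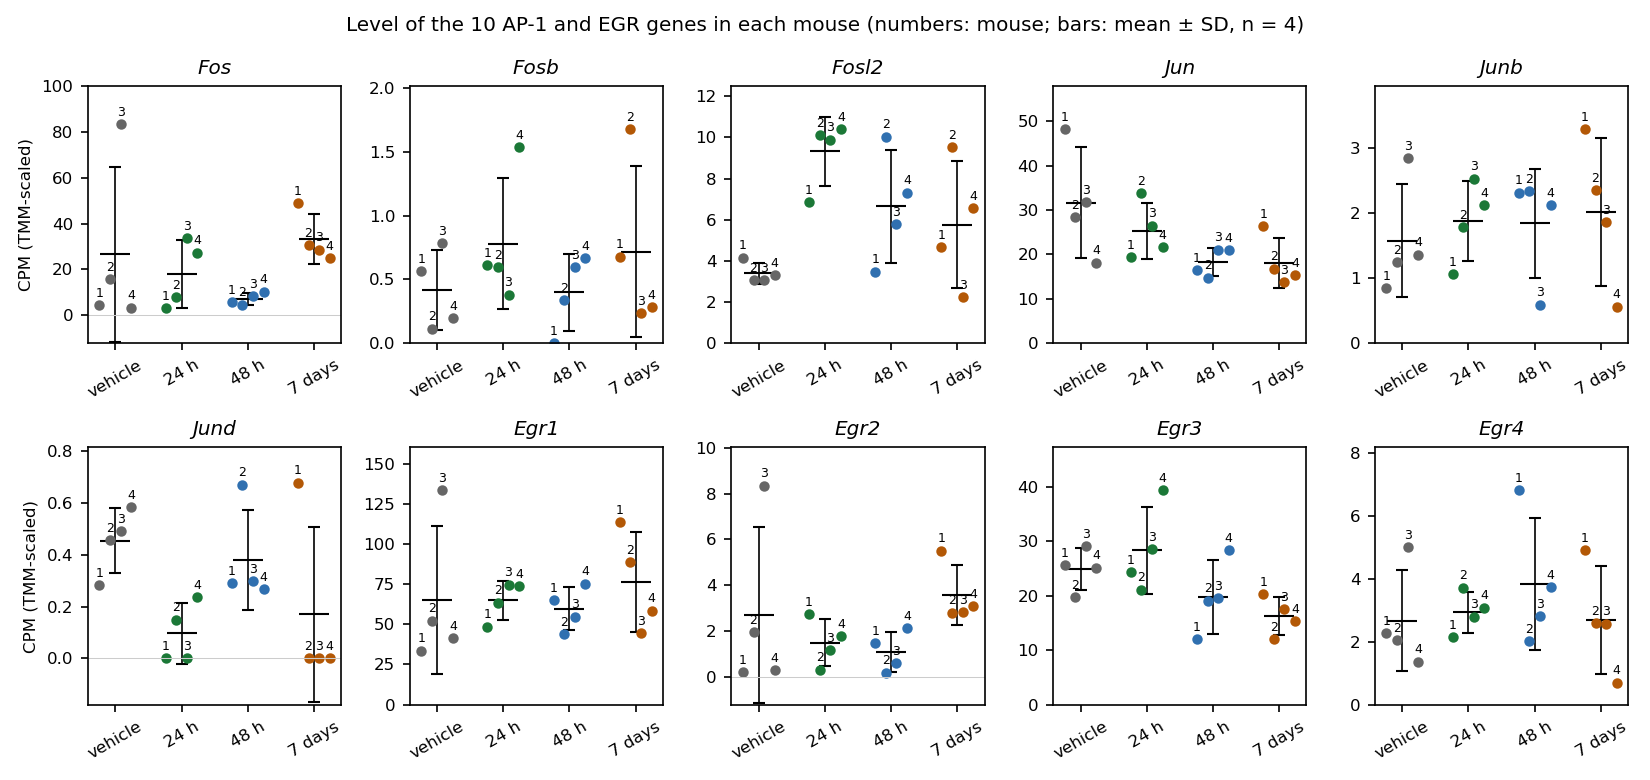
Level of each of the 10 genes in each mouse (CPM with TMM factors, linear axes that differ between panels). Points are mice with their number, and bars are the group mean ± SD (n = 4). Vehicle mouse 3 stands at 83.41 CPM of Fos and 133.4 CPM of Egr1, and the 24 h mice lie above the vehicle mice for Fosl2.

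Levels are given as CPM, the count scaled to a common library size with TMM factors. Between genes they were compared per kb of exon. In vehicle mice the order was Egr1 at 14.54 ± 10.29 CPM per kb, Fos at 11.33 ± 16.27, Jun at 9.933 ± 3.936 and Egr3 at 5.655 ± 0.871 (mean ± SD, n = 4). Then came Egr4 at 1.244 ± 0.7477, Junb at 0.8723 ± 0.484, Egr2 at 0.792 ± 1.135, Fosl2 at 0.3507 ± 0.05374, Jund at 0.2718 ± 0.07538 and Fosb at 0.06651 ± 0.05064. Neighbours in this order overlapped in range except at 2 steps, from Egr3 to Egr4 and from Jund to Fosb. Only reads on exons were counted, so unspliced RNA in the introns of these nuclei adds nothing to these levels.

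**Figure D2:**
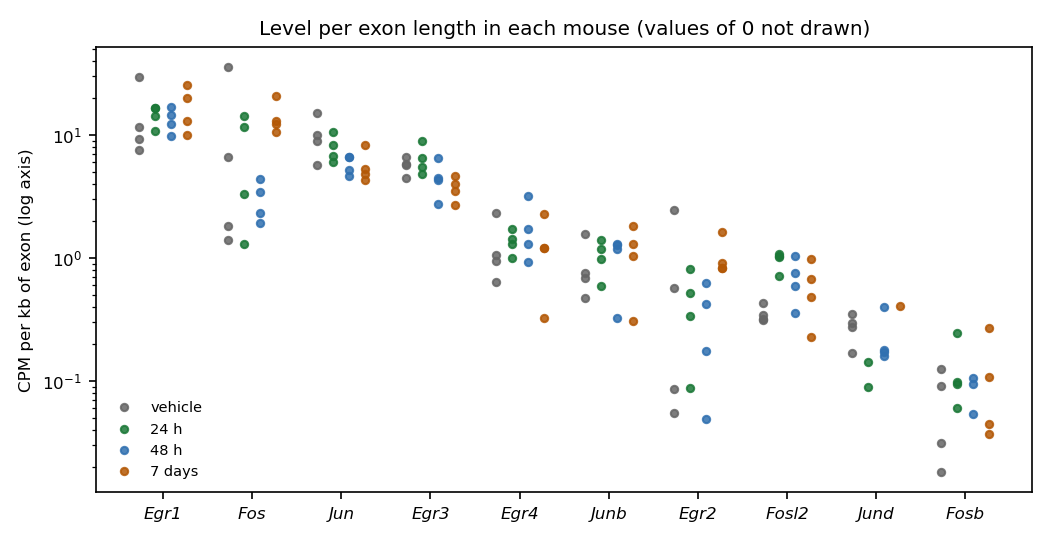
Level per kb of exon (log axis) of the 10 genes in each mouse, ordered by the vehicle mean. Points are mice, coloured by group, and values of 0 are not drawn. Egr1, Fos, Jun and Egr3 lie above the other 6 genes in the vehicle mean, and Egr2 and Fos show the widest vertical spread among vehicle mice.

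Fosl2, which encodes the FOS family protein FRA-2, was the member that rose. The gene lies at chr5:32135801-32157842 on the plus strand of GRCm38. Its level was 4.154, 3.07, 3.046 and 3.309 CPM in vehicle mice 1 to 4, and 6.854, 10.12, 9.889 and 10.42 CPM in the 24 h mice. Every 24 h mouse lay above every vehicle mouse, a separation that 35.7% of all genes tested also showed, in either direction, at 24 h and that none of the other 7 members tested did. The log2 fold change was 1.45 (SE 0.41, 95% interval 0.60 to 2.30, adjusted p = 0.0168, edgeR). At 48 h the mice had 3.477, 10.04, 5.781 and 7.312 CPM, which overlapped vehicle in mouse 1 only, with a log2 fold change of 0.96 (SE 0.41, adjusted p = 0.0780). At 7 days the values were 4.658, 9.525, 2.218 and 6.576 CPM (log2 fold change 0.75, SE 0.40, adjusted p = 0.357).

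Among the 7 days mice, Fosl2 was highest in mice 2 and 4, which were also those with the larger 18S pseudogene share and excitatory marker sum. The 24 h call held in all 8 fits that left out 1 mouse (adjusted p = 0.0204 to 0.0498, edgeR) and in 12 of 13 other settings. The exception had the 18S pseudogene share as a covariate, where the log2 fold change was 0.30 (adjusted p = 0.982) and 0 of all genes were called at 24 h. This share differed between vehicle and 24 h mice without overlap, so in that comparison the share and the treatment cannot be told apart.

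Fos, the prototype immediate early gene (chr12:85473890-85477273, plus strand), was at 4.249, 15.58, 83.41 and 3.309 CPM in the vehicle mice. The 24 h mice had 3.046, 7.738, 33.6 and 27.34 CPM, and the 48 h mice 5.505, 4.52, 8.153 and 10.24 CPM. At 7 days the level was 49.03, 30.48, 28.61 and 24.77 CPM, above every 48 h mouse. Vehicle mouse 3 alone lay above all DOI mice, while the other vehicle mice lay within or near the range of the 24 h and 48 h groups. The vehicle group spanned 25.21-fold from its lowest to its highest mouse.

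None of the Fos comparisons with vehicle passed the threshold. Its log2 fold change was -0.56 at 24 h (SE 0.77, adjusted p = 0.615), -1.90 at 48 h (SE 0.81, adjusted p = 0.0801) and 0.32 at 7 days (SE 0.76, adjusted p = 0.860). Without vehicle mouse 3 these became 1.23 (adjusted p = 0.184), -0.10 (adjusted p = 0.922) and 2.12 (adjusted p = 0.194), so 1 control mouse set the sign at 24 h and most of the size at 48 h. Between 7 days and 48 h the log2 fold change was 2.22 (SE 0.81, adjusted p = 0.206). Fosb (chr7:19302696-19310051, minus strand), whose splice form deltaFosB is known to accumulate with repeated stimulation, was near the limit of detection: its counts were 0 to 15 per mouse, and its highest level was 1.681 CPM in 7 days mouse 2.

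Of the JUN genes, Jun (chr4:95049034-95052222, minus strand), the main partner of FOS, had 48.34, 28.43, 31.83 and 18.1 CPM in the vehicle mice. The 24 h mice had 19.34, 33.78, 26.5 and 21.66 CPM, the 48 h mice 16.51, 14.73, 21.05 and 21.01 CPM, and the 7 days mice 26.34, 16.81, 13.66 and 15.25 CPM. The 48 h mice lay below vehicle mice 1 to 3 and on either side of vehicle mouse 4. Jun was lower at 48 h with a log2 fold change of -0.79 (SE 0.29, 95% interval -1.39 to -0.18, adjusted p = 0.0463, edgeR), and was at -0.32 at 24 h (adjusted p = 0.422) and -0.81 at 7 days (SE 0.29, adjusted p = 0.171).

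The Jun call was close to the threshold. It held in 1 of 8 fits that left out a mouse, the one without vehicle mouse 4 (log2 fold change -0.98, adjusted p = 0.0238), and in 6 of 13 other settings. Leaving out vehicle mouse 1 gave -0.51 (adjusted p = 0.212), and the mouse number as a replicate block gave -0.72 (adjusted p = 0.085). The direction stayed negative in all of these fits. At 7 days Jun passed only without mouse 1 (-1.05, adjusted p = 0.040). Of the Jun exon bases, 232 also belong to the antisense gene Junos, which had 112 counts over all libraries, and the counting options in the file headers name no strand.

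Junb (chr8:84976910-84978718, minus strand), an immediate early JUN protein that often restrains JUN, ranged from 0.5597 to 3.303 CPM over the 16 mice, and its log2 fold changes were 0.25, 0.22 and 0.37 at 24 h, 48 h and 7 days (SE 0.59 to 0.60). Jund (chr8:70698949-70700616, plus strand) had 0 to 8 counts per mouse, and 877 of its exon bases (52.6%) are shared with the annotated gene Gm11175 on the other strand, and featureCounts by default leaves uncounted a read that overlaps 2 genes. The part of this in its low level was not tested, and no fold is given. Its counts were 3 to 6 in the vehicle mice, 0 to 2 at 24 h and 2 to 4 at 48 h, and its CPM at 24 h lay below that of every vehicle mouse and every 48 h mouse, separations seen in 35.7% and 1.96% of all genes tested. Most of these counts are at or under 3, so no difference is read from them. At 7 days it had 8 counts in mouse 1 and 0 in the other mice. The limit that 3 counts set was 0.243 to 0.514 CPM across mice.

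**Figure D3:**
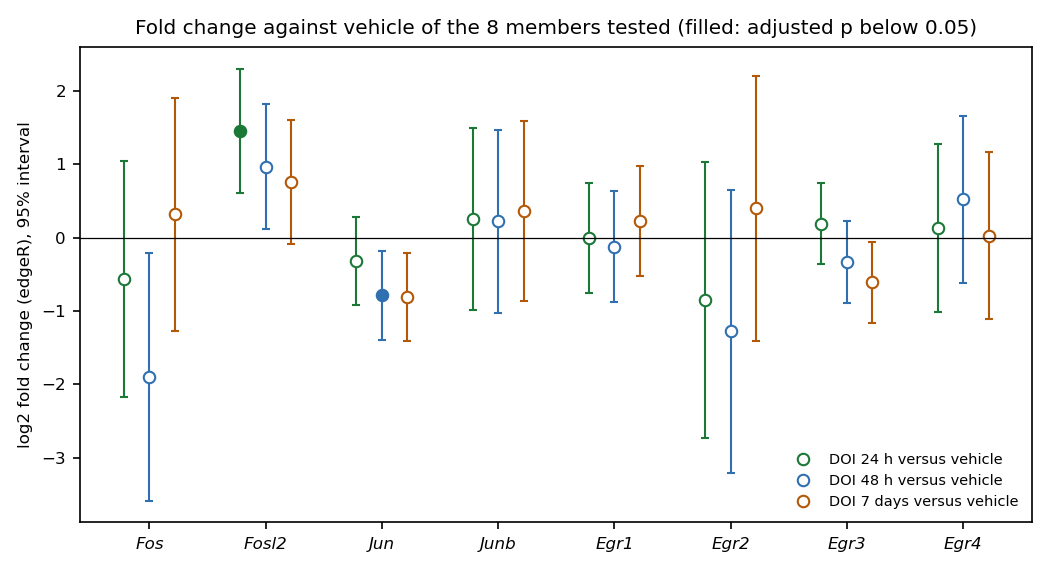
Log2 fold change against vehicle of the 8 members tested (edgeR), with 95% intervals, for 24 h, 48 h and 7 days. Filled points passed an adjusted p of 0.05: Fosl2 at 24 h (1.45) and Jun at 48 h (-0.79).

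Egr1, the EGR gene with the highest level, was at 33.61, 52.31, 133.4 and 41.36 CPM in the vehicle mice (chr18:34859823-34864984, plus strand). The 24 h mice had 48.44, 63.54, 74.55 and 73.74 CPM, the 48 h mice 65.04, 44.02, 54.7 and 75.25 CPM, and the 7 days mice 113.7, 88.64, 44.37 and 58.49 CPM. All 3 DOI groups overlapped vehicle. Group means were 65.18 ± 46.14, 65.07 ± 12.17, 59.75 ± 13.43 and 76.31 ± 31.04 CPM (SD, n = 4). The log2 fold change was -0.00 at 24 h (95% interval -0.75 to 0.75), -0.12 at 48 h (-0.88 to 0.63) and 0.23 at 7 days (-0.52 to 0.98). Without vehicle mouse 3, the 24 h value was 0.62 (adjusted p = 0.144) and the 48 h value 0.50 (adjusted p = 0.216).

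Egr2 (chr10:67535475-67542188, plus strand), known also for its part in myelinating glia, was at 0.1888, 1.933, 8.351 and 0.292 CPM in the vehicle mice, a span as uneven as that of Fos. The 24 h mice had 2.742, 0.2976, 1.141 and 1.775 CPM, and the 48 h mice 1.449, 0.1674, 0.5929 and 2.127 CPM. At 7 days the level was 5.504, 2.801, 2.802 and 3.078 CPM, above all 24 h and 48 h mice. The log2 fold changes against vehicle, -0.85, -1.28 and 0.40, had standard errors of 0.86 to 0.92, and none passed. Without vehicle mouse 3 they became 0.90 (adjusted p = 0.484), 0.47 (adjusted p = 0.720) and 2.15 (adjusted p = 0.284). Against 48 h the 7 days value was 1.68 (SE 0.92, adjusted p = 0.364).

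Egr3 (chr14:70077203-70082614, plus strand), a target of EGR1 that is also known in synaptic plasticity, varied least among the EGR genes in vehicle mice, with 25.59, 19.79, 29.08 and 25.21 CPM. It had 24.37, 21.13, 28.53 and 39.41 CPM at 24 h, 12.02, 19.08, 19.57 and 28.45 CPM at 48 h, and 20.32, 11.99, 17.51 and 15.39 CPM at 7 days. Every 7 days mouse lay below every 24 h mouse (log2 fold change -0.80, SE 0.27, adjusted p = 0.193), and against vehicle the 7 days value was -0.61 (SE 0.27, adjusted p = 0.254). Egr4 (chr6:85511121-85513589, minus strand) ranged from 0.6996 to 6.809 CPM over the 16 mice, with log2 fold changes of 0.13, 0.52 and 0.03 (SE 0.54 to 0.55).

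Comparisons between the DOI times called no member. Over all genes, 0% were called between 48 h and 24 h, 0.00557% (1 gene) between 7 days and 24 h and 0% between 7 days and 48 h. At an unadjusted p under 0.05, 0, 1 and 1 member were found in these comparisons, beside 1.88%, 14.2% and 16.5% of all genes. Any difference among the 4 groups was called in 18.8% of all genes and in 0 of 8 members, of which Fosl2 (adjusted p = 0.0722), Jun (0.0989) and Egr3 (0.117) were nearest. Among the 8 members tested, groups did not overlap for Fosl2 at 24 h against vehicle (35.7% of all genes), for 0 members at 48 h (38.1%) and for 0 members at 7 days (5.85%). Between times, separation was seen in 0 of these 8 members for 48 h against 24 h (1.96% of all genes), in Egr2 and Egr3 for 7 days against 24 h (5.13%), and in Fos and Egr2 for 7 days against 48 h (5.72%).

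The 300-base windows around the start sites of 3 members are shown because Fos and Egr2 are the members with the widest spread between vehicle mice and Fosl2 is the one that rose. They come from RefSeq on GRCm38.p6, with 250 bases before the start and 50 from it on; 8 of the 10 members matched the table. The Fosl2 and Egr2 windows shown lie inside the genes as counted, past their first annotated base, and the Jund window ends before the counted gene starts, so it is not described. Capitals mark matches, on either strand, to the EGR site GCGNGGGCG, the core of the cyclic AMP response element TGACG (its reverse complement on the other strand), the CArG box that SRF binds, and the TATA box TATAAA. The AP-1 site TGANTCA and the full element TGACGTCA, which contains the core, were searched as well.
Fos, chr12:85473640-85473939, plus strand: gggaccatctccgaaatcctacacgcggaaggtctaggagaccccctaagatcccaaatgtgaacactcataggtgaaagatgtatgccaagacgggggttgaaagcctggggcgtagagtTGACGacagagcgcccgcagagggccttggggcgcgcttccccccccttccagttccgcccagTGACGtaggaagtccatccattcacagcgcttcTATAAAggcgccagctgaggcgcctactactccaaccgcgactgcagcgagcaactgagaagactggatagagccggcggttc
Egr2, chr10:67537619-67537918, plus strand: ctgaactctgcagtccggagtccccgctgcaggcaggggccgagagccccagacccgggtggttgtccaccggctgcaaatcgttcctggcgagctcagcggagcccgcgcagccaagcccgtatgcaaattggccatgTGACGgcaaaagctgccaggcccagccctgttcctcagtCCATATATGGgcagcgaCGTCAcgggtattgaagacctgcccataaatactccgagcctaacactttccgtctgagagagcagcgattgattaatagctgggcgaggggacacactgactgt
Fosl2, chr5:32136222-32136521, plus strand: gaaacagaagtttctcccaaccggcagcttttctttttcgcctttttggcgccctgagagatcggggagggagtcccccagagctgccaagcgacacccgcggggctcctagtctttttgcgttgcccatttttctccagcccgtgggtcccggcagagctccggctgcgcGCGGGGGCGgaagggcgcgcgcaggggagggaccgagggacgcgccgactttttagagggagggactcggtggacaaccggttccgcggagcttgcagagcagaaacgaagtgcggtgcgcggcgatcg
The Fos window holds core matches 129 and 66 bases before the start and a TATA box 33 bases before it. The Egr2 window, 1 of 5 in the table for this gene, holds a CArG box 72 bases before the start between core matches at 111 and 55 bases. The Fosl2 window holds an EGR site 79 bases before the start and none of the other motifs.

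Among 32851 RefSeq windows of the same length, 5.552% held the EGR site, 20.81% the core, 1.629% a CArG box and 13.62% TATAAA. The AP-1 site, found in 7.808% of windows, and the full element, found in 1.79%, matched in none of the windows of the other members in the table. The Jun window held none of the 6 motifs, Fosb held an EGR site and a core match, Junb a core match and TATAAA, and Egr4 held 2 core matches. A match is a run of letters and not a measured binding site, and no binding was measured here.

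For Fos and Egr1, the differences between vehicle mice were present in both libraries of a mouse. In vehicle mouse 3, Fos was at 84.26 and 78.31 CPM in libraries 1 and 2, and in vehicle mouse 4 at 2.689 and 3.636 CPM. Egr1 was at 129.3 and 131.9 CPM in mouse 3 against 34.96 and 44.17 CPM in mouse 4. On the log2(CPM + 0.5) scale, the libraries of a mouse differed by a median of 0.21 for Fos and 0.13 for Egr1, while pairs of vehicle mice differed by a median of 2.23 and 0.99. For Fosl2 the order was the other way round, 0.45 between libraries and 0.20 between vehicle mice, as it was for Junb, with 0.78 and 0.66. The other 4 members tested differed more between vehicle mice than between libraries, among them Jun with 0.15 and 0.70. Of the 10 members, 7 were highest in mouse 3 among the vehicle mice (Fos, Fosb, Junb, Egr1, Egr2, Egr3 and Egr4), and 8 were highest in mouse 1 among the 7 days mice.

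**Figure D4:**
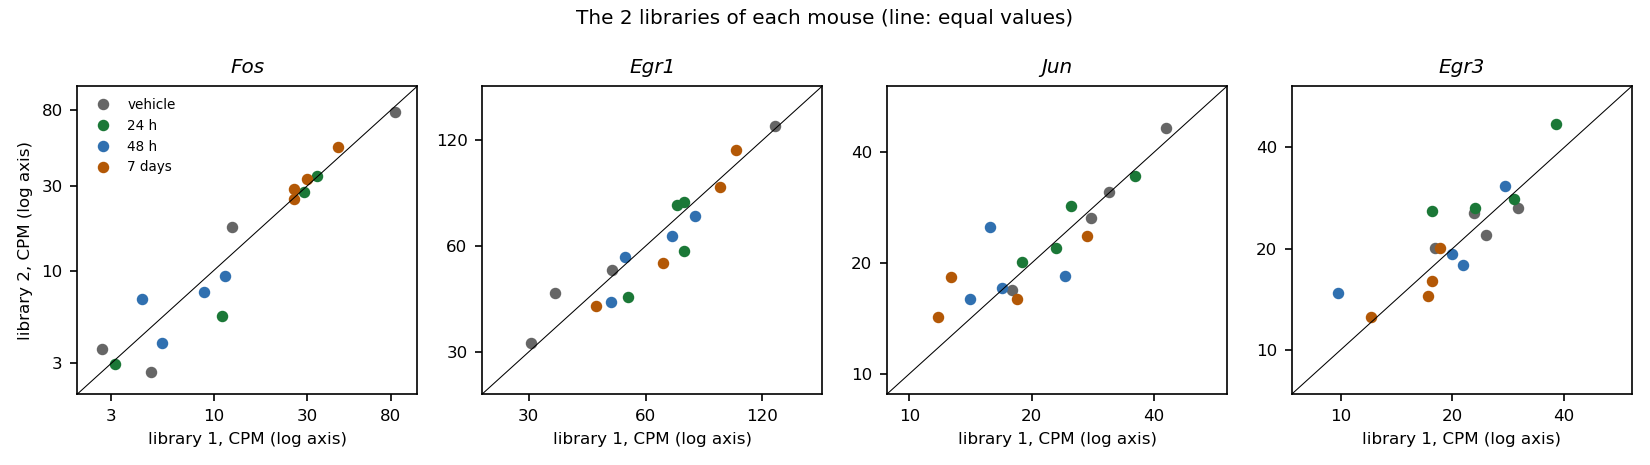
Library 2 against library 1 of each mouse for Fos, Egr1, Jun and Egr3 (CPM, log axes that differ between panels; 16 mice, coloured by group; the line marks equal values). Vehicle mouse 3 is the highest point in both libraries for Fos and Egr1. Mice with closer values change order in places. For Fos, vehicle mice 1 and 4 had 4.78 and 2.689 CPM in library 1, and 2.696 and 3.636 CPM in library 2.

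Members were correlated over the 16 mice after subtracting each group's mean from log2 CPM, with 100000 permutations of mice within groups and adjustment over the 28 pairs. Fos and Egr1 were the pair that passed, with Pearson's r = 0.81 (adjusted permutation p = 0.00504) and Spearman's rho = 0.78 (adjusted permutation p = 0.00448). Pearson's r was 0.68 without the 2 mice farthest from the median of Fos, 0.89 without the 7 days group and 0.60 without the vehicle group. Egr1 and Egr2 had r = 0.72 (adjusted permutation p = 0.0993), Junb and Egr4 r = 0.70 (0.101), and Fos and Egr2 r = 0.65 (0.205). Fos and Fosl2 had r = 0.02 (adjusted permutation p = 0.978), and the lowest of the 28 values was -0.36, for Fosl2 and Egr4. In all, 24 of the 28 values were positive.

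**Figure D5:**
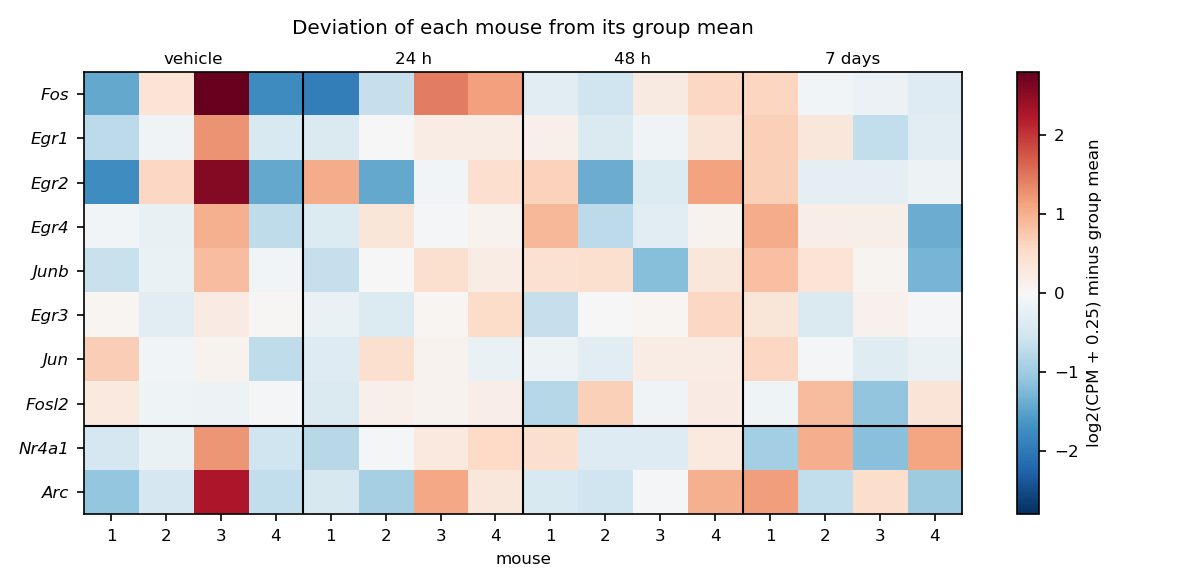
Deviation of each mouse from its group mean (log2(CPM + 0.25)) for the 8 members tested and, below the line, Nr4a1 and Arc. Columns are mice in their groups, red above and blue below the mean. Vehicle mouse 3 is red for Fos, Egr1, Egr2, Egr4 and Junb and for Nr4a1 and Arc, but not for Fosl2.

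Likeness was Pearson's r across the 12 mice of vehicle, 24 h and 48 h, after subtracting each group's mean from log2 CPM. It therefore describes differences between mice of a group and not between groups. The genes most like Fos among 12794 were Egr1 (r = 0.89), Nr4a1 (0.88) and Arc (0.87). Those most like Egr1 were Nr4a1 (0.93), Arc (0.89) and Fos (0.89). Nr4a1 encodes an orphan nuclear receptor and Arc a synaptic protein, both classical immediate early genes. Without vehicle mouse 3, the values for Fos were 0.78, 0.75 and 0.73 over 11 mice. Fosl2 was most like Psmd9, Izumo4 and Ddx6 (r = 0.94 for each), and Jun most like Eif4g1 (0.95), Kif3a (0.93) and Nsdhl (0.90). The top genes for Junb were Gm31305, Shank2 and Cacnb1, for Egr2 Gpr173, Tpt1 and Slc15a2, for Egr3 Foxj2, Gm12115 and Cmss1, and for Egr4 B3gat1, Gm20342 and Gnai2, with r from 0.81 to 0.92. These r are descriptions over few mice, taken as the highest of many genes.

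Genes that act beside the members were described from 6 lists of AP-1 partners, upstream regulators, kinases, NAB repressors, other immediate early regulators and targets. Of 69 listed genes, 61 were tested, and 19 (31.15%) were called at 24 h, 11 higher and 8 lower, beside 24.2% of all genes. At 48 h, 27 (44.26%) were called, 15 higher and 12 lower, beside 30.1% of all genes. Fits that left out 1 mouse called 10 to 15 of them at 24 h and 16 to 24 at 48 h. The median log2 fold change over the list was 0.23 at 24 h and 0.26 at 48 h, against 0.03 and 0.02 over all genes. At 7 days 0 were called by edgeR, with 15 at an unadjusted p under 0.05 (16.8% of all genes), and DESeq2 called 6, of 796 genes it called in all. With the 18S pseudogene share as a covariate 0 were called at 24 h or 48 h. Of all calls at 24 h, 57% were higher, and 67.3% where libraries were scaled by total counts alone.

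The 7 AP-1 partner genes tested gave 2 higher and 2 lower calls at 24 h, and 4 higher and 2 lower at 48 h. The shares of all genes called were 24.2% and 30.1%. Atf7, a CREB-family partner of JUN, rose by 1.40 at 24 h and 1.47 at 48 h on the log2 scale (SE 0.32 for both), and Maf (1.12) rose at 48 h. Jdp2, a repressor that pairs with JUN, was lower by log2 fold changes of -1.70 (SE 0.57, adjusted p = 0.0384) and -2.21 (SE 0.59, adjusted p = 0.0111). Its vehicle mice had 7.554 to 10.12 CPM and its 48 h mice 0.7243 to 2.511 CPM. At 7 days mice 1 and 3 had 10.25 and 10.98 CPM and mice 2 and 4 had 1.457 and 1.679 CPM, the same split of mice as in the 18S pseudogene share. The 24 h call of Jdp2 held in 1 of 8 fits that left out a mouse.

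Of 17 SRF, CREB and MEF2 regulators, 4 rose at 24 h and 6 at 48 h, and 0 fell at either time. Over all genes, 13.8% were called higher and 10.4% lower at 24 h, and 16.8% higher and 13.3% lower at 48 h, so the share of this list called at 24 h was near that of all genes. The CREB coactivator Crtc1 had the largest of these, with a log2 fold change of 1.76 at 24 h (SE 0.27, adjusted p = 0.00159) and 1.69 at 48 h (SE 0.27, adjusted p = 0.00155). The SRF coactivator Mrtfb (0.90 and 0.99) and the acetyltransferase Ep300 (0.78 and 0.89) rose at both times and Crtc3 (0.90) at 48 h. In the MAP kinase list of 15 genes, 1 rose and 3 fell at 24 h, and 1 rose and 4 fell at 48 h. Rps6ka1, a ribosomal S6 kinase, fell (-2.30 and -2.75), as did Map2k1, which encodes MEK1, at 48 h (-0.74). Map2k7, which activates JNK, rose (0.83 and 1.18), and 35.23% of its exon bases are shared with other genes. Of the NAB repressors, Nab1 rose at 48 h (0.59, SE 0.21, adjusted p = 0.0408).

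Other immediate early regulators went both ways: of 10, 3 rose and 2 fell at 24 h, and 2 rose and 4 fell at 48 h. Over all genes, 24.2% were called at 24 h and 30.1% at 48 h. Nr4a1 had 4.769 to 17.09 CPM in vehicle mice and 25.89 to 65.45 CPM at 24 h, without overlap (log2 fold change 2.51, SE 0.51, adjusted p = 0.00392), and was at 2.17 at 48 h (SE 0.51, adjusted p = 0.00583). Nr4a3 rose as well (1.76 and 1.62), and Csrnp1 rose at 24 h (2.22, SE 0.71, adjusted p = 0.0316) in a gene of at most 2.353 CPM. Btg2 (-1.99) and Ier2 (-1.89), both induced with Fos in many cells, were lower at 48 h. Among 11 reported targets of AP-1 or EGR, 1 rose and 1 fell at 24 h, and 1 rose and 2 fell at 48 h. These counts stand beside the same 24.2% and 30.1% of all genes. Vgf, a secreted neuropeptide precursor, rose (0.87 and 0.85), and Gria2, an AMPA receptor subunit, fell (-0.85 at both times). Arc fell at 48 h (-2.12, SE 0.68, adjusted p = 0.0270), and without vehicle mouse 3, where it was at 290 CPM against 28.23 to 43.21 CPM in the other vehicle mice, the value was -0.66 (adjusted p = 0.353).

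These related calls differed in how they held when 1 mouse was left out. Atf7, Crtc1, Mrtfb, Ep300, Nr4a1, Nr4a3 and Gria2 were called in all 8 such fits at both times, as were Jdp2, Map2k7, Rps6ka1 and Btg2 at 48 h. Rps6ka1 at 24 h was called in 7 of 8. Arc was called in 4 of 8 at 48 h, Crtc3 in 3, Maf, Map2k1 and Nab1 in 2 and Ier2 in 1. At 24 h Csrnp1 was called in 2 of 8 and Map2k7 in 0, and Vgf was called in 0 of 8 at both times. All of these values kept their sign in these fits.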

How the data were processed

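RNA-seq of sorted NeuN-positive nuclei (SMART-seq2 and Nextera XT, per the labels) was analysed in 16 mice, 32 libraries; the H3K27ac and input samples were not analysed here. The deposited files hold raw counts per Ensembl gene, made by the authors with featureCounts 2.0.0 over exons without options for strand or multi-mapped reads, per the file headers; the read aligner is not given in the sources used here. Symbols matched 55141 of 55401 IDs. In 6 libraries (3 mice) the header carries another mouse number than the label, with the same group.

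The libraries of a mouse were summed. edgeR 4.0.16 (R 4.3.3) was used with filterByExpr, TMM factors and 1 quasi-likelihood fit over the 4 groups, SE being the log2 fold change over the root of F, and was tested on simulated data. Alternatives were DESeq2 1.42.0, limma 3.58.1 (voom), scaling, filter, single libraries, thinning, covariates and leaving out each mouse. Named besides the members were up to 4 called genes per list with the largest change, Nr4a1, Nr4a3, Arc and the 3 genes most like each member (log2 CPM, mean at least 2); some genes that this rule names are not reported here. Members and lists were chosen with earlier results of these data known. The labels name separate mice; same-numbered mice share only a number.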

Additional observations from a re-analysis of the deposited data

Results flagged for a closer look

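In 6 of 40 gene and group combinations, 1 mouse lay far from the other 3, by a gap above Dixon's critical value for 4 values. In the vehicle group this was Fos in mouse 3, at 83.41 CPM against 15.58 CPM in the next mouse. At 24 h it was Fosl2 in mouse 1, lower at 6.854 CPM against 9.889 CPM, and that mouse was still above all vehicle mice. At 48 h Junb in mouse 3 was low at 0.5929 CPM, with 2.127 CPM in the nearest mouse, and Jund in mouse 2 was high at 0.6696 CPM, with 0.2965 CPM in the nearest. At 7 days, mouse 1 was high for Egr2, at 5.504 CPM against 3.078 CPM, and for Jund, at 0.6775 CPM with 0 in the other 3 mice. The Jund values rest on 8 counts or fewer.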

How the results depend on the processing

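Fosl2 at 24 h was called in every setting except with the 18S pseudogene share as a covariate, which left 0 members at 24 h and 48 h and 0 related genes at both. At 48 h the count of 1 member became 2 with DESeq2, with only the groups compared and with the 7 days group left out of the fit, an alternative added after seeing the data (Jun and Fosl2 in each), and 2 without a filter (Jun and Fos). It became 0 with total counts, library 2, thinned counts or the mouse number as a replicate block (Jun -0.72, and 4664 genes in all). With voom, and without mouse 1 of 24 h and of 48 h, the 1 member at 48 h was Fosl2 in place of Jun. That replicate block changed no other member call, and same-numbered mice did not deviate together (mean r = -0.04 over 24 pairs), so the number pairs nothing. Leaving out 1 mouse gave 0 to 2 members at 48 h, 0 to 1 at 7 days and 0 to 1 among the 4 groups, and 10 to 15, 16 to 24 and 0 to 11 related genes at 24 h, 48 h and 7 days. Without a filter, Fos was called between 7 days and 48 h (1 member) and among the 4 groups (1), where DESeq2 and voom each called 1, Fosl2. Related genes at 7 days numbered 6 with DESeq2 and 4 without a filter. Over all genes, voom called 7236 at 24 h, DESeq2 called 796 and no filter 958 at 7 days, and the 18S covariate left 0 at 24 h and 48 h. The cause of these changes was not tested.

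These values changed sign. Egr1 at 24 h was 0.012 with DESeq2 and with RLE factors, 0.058 with voom, 0.091 with total counts, 0.12 in library 1, 0.018 thinned, 0.070 with the replicate block, 0.12 without mouse 1 of 24 h and of 48 h together, 0.020 with only the groups compared and 0.0019 without the 7 days group. Egr4 at 24 h was -0.17 in library 2 and -0.087 thinned, and at 7 days -0.037 with voom, -0.23 in library 2, -0.29 thinned and -0.045 with the replicate block. Fos at 24 h was 0.040 and Junb at 48 h -0.10 with voom. With the 18S covariate, Egr3 at 48 h was 0.078 and Fosl2 -0.20, and at 24 h and 48 h Ep300 was -0.071 and -0.011, Jdp2 1.21 and 0.89, Map2k7 -0.45 and -0.16, and Vgf -0.0081 and -0.066; Ier2 (1.00), Nr4a1 (-0.32) and Nr4a3 (-0.079) turned at 48 h and Rps6ka1 (0.22) at 24 h. Leaving out 1 mouse moved Egr1 from -0.22 to 0.62, -0.34 to 0.50 and -0.023 to 0.85 at 24 h, 48 h and 7 days, Egr2 from -1.30 to 0.90 at 24 h and -1.85 to 0.47 at 48 h, Egr3 from -0.022 to 0.30 at 24 h, Egr4 from -0.086 to 0.63 at 24 h and -0.44 to 0.52 at 7 days, and Fos from -1.07 to 1.23 at 24 h and -0.050 to 2.12 at 7 days. Total counts moved the median of all genes to 0.14 at 24 h, from 0.03. Fosb and Jund had at most 15 and 8 counts in a mouse. The part of depth in this was not tested, nor, for Jund, that of the exon bases shared with Gm11175.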
